A study of Glycine max with 8 samples.

Results

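Transcript levels in seeds of soybean (Glycine max, cultivar Tamahomare) were compared between green, fully grown beans and beans of 5 mm length, a comparison held by 4 of the 8 arrays of the series. The 2 arrays titled fully grown and the 2 titled bean 5 mm were chosen by their titles, and their source is labelled as seed with no mention of pod. The other 4 arrays, 2 of pods at the beginning of elongation and 2 of beans of 2 mm together with their pod, served only as a description of earlier stages. All groups were of this 1 cultivar, and the labels name no mutation and no treatment. The labels do not say whether the arrays of a stage came from separate plants, so p-values measure the spread between these arrays, which may be technical. Whole beans hold embryo, seed coat and remaining endosperm, and fewer cells of a tissue cannot be told apart from less of a transcript per cell.

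Soybean seeds first build their coat and embryo by cell division and then fill: sucrose and amino acids from the mother plant are turned into storage protein, oil and soluble sugars in the cotyledons. The 11S globulins (glycinins) and 7S globulins (conglycinins) make up most of the storage protein and lie in protein storage vacuoles beside trypsin inhibitors and lectin. Towards the end of filling, late embryogenesis abundant (LEA) and other maturation proteins gather, which are linked to desiccation tolerance. The seed coat, which is maternal tissue, makes proanthocyanidins through dihydroflavonol reductase (DFR), anthocyanidin synthase (ANS) and anthocyanidin reductase (ANR).

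The arrays held 37641 soybean probe sets, of which 72.4% and 71.3% were above background in fully grown beans and 81.8% and 80.9% in beans of 5 mm. Background was the 95th percentile of the signals of 23394 probe sets made for soybean pathogens on the same array. Replicates correlated at r = 0.971 in fully grown beans and 0.987 in beans of 5 mm over probe sets, and differed by a median of 0.25 on the log2 scale in fully grown beans and 0.12 in beans of 5 mm. The 3' to 5' ratio of actin, a measure of RNA integrity, was 2.73 and 4.80 in fully grown beans and 2.07 and 2.22 in beans of 5 mm. Its part in the results was not tested. Deposited medians were 23.2 and 18.9 in fully grown beans and 50.3 and 49.7 in beans of 5 mm, so every array was scaled linearly to a median of 35.5 and all values below are scaled signals or differences of log2(scaled signal + 16).

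Of 30748 tested probe sets, 13683 (44.5%) passed an adjusted p of 0.05 in limma's moderated test, 8120 (26.4%) higher and 5563 (18.1%) lower in fully grown beans. At least 2-fold differences among them numbered 3588 (11.7%) higher and 2607 (8.48%) lower. Among 871 tested genes with a gene symbol, 494 (56.7%) passed, 315 (36.2%) were higher and 179 (20.6%) lower, with a median difference of 0.19 against 0.11 over all tested probe sets. The 2 fully grown and the 2 bean 5 mm values did not overlap for 75.5% of tested probe sets (43.6% higher and 31.8% lower in fully grown beans), so the counts of gene lists below are read against these shares. The share of calls differed with brightness: among the 7687 brightest tested probe sets 42.8% were higher and 16.7% lower, whereas among the 7687 with mean signals between 21.8 and 53.8 it was 21.4% higher and 21.6% lower.

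How many genes counted as higher rested on the scaling. The median difference over all tested probe sets was -0.72 on the values as deposited, -0.01 after quantile normalization and -1.52 when arrays were scaled to the spiked hybridization controls, and higher calls made up 59.3% of all calls as reported, 7.98% as deposited, 48.8% after quantile normalization and 2.14% by the hybridization controls. Directions are therefore relative to the median soybean probe set. The globulins, the other seed proteins and the maturation genes were mainly higher, and the flavonol and proanthocyanidin, MADS-box and seed coat lists mainly lower, under each of these 4 scalings. Where the values as deposited turned a list round or evened it out, their counts are given beside it. Counts by quantile normalization and by the hybridization controls are given for some lists only. Counts of lists also moved with single arrays left out, as given beside those that moved most, and the others moved by at most 3 genes in either direction.

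The share of signal held by the brightest probe sets, which no linear scaling changes (quantile normalization would make it equal on all arrays), was larger in fully grown beans. The 100 brightest soybean probe sets held 14.9% and 14.5% of the summed signal in fully grown beans, against 5.45% and 5.96% in beans of 5 mm. In fully grown beans 1160 and 1098 probe sets held 50% of the signal, against 2685 and 2559 in beans of 5 mm. The earlier stages lay near the 5 mm beans, with 5.66% and 5.69% at pod elongation and 4.84% and 5.35% in beans of 2 mm with pod for the 100 brightest. The brightest probe set had 1.38 and 1.36 times the signal of the 20th brightest on the fully grown arrays, and whether the scanner's range limited the top signals was not tested.

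**Figure D1:**
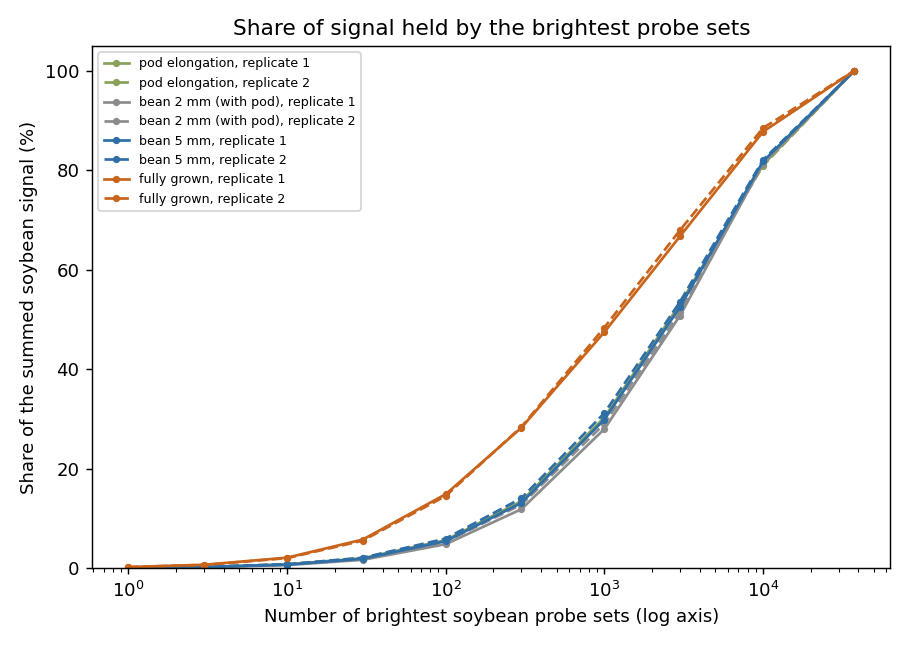
Share of the summed soybean signal (%, vertical axis) held by the given number of brightest probe sets (horizontal log axis) on each of the 8 arrays, with solid lines for replicate 1 and dashed lines for replicate 2. Both fully grown curves run above the others, at 14.9% and 14.5% for the 100 brightest probe sets, and the other 6 arrays lie between 4.84% and 5.96%.

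All 9 tested globulin genes were higher in fully grown beans, against 26.4% of all tested probe sets and 36.2% of tested symbol genes. Their median difference was 7.32, against 0.11 over all tested probe sets and 0.19 over symbol genes. Their summed signal was 1.13% and 1.07% of all soybean signal in fully grown beans, against 0.000778% and 0.0153% in beans of 5 mm, a share that no linear scaling changes. The largest was the beta subunit gene of conglycinin, CG-BETA-1, with signals of 15016 and 15218 in fully grown beans against 2.02 and 0.575 in beans of 5 mm. Neither 5 mm bean array was above background, and the rise was at least 3306-fold (log2 difference 9.77 ± 0.14 SE, adjusted p = 1.08e-06). Such bounds set the geometric mean of the bright arrays against that of the background levels of the dim ones. They are given only where neither dim array was above background. Glycinin GY5 gave 12069 and 13268 in fully grown beans against 2.00 and 0.606 in beans of 5 mm, at least 2768-fold higher (adjusted p = 1.08e-06). GY3 gave 7683 and 10298 in fully grown beans against 1.46 and 0.167 in beans of 5 mm, at least 1945-fold higher (adjusted p = 1.7e-06). BG7S-1, the gene of a basic 7S globulin, gave 11798 and 9802 in fully grown beans against 1.34 and 2.78 in beans of 5 mm and was at least 2352-fold higher (adjusted p = 1.25e-06). None of these 4 genes was above background on either 5 mm array.

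Glycinins GY1 and GY2 were above background on both 5 mm arrays. GY1 read 11429 and 12867 in fully grown beans, against 9.85 and 395 in beans of 5 mm (log2 difference 6.88 ± 1.11, adjusted p = 0.00333). GY2 read 11219.5 and 11894 in fully grown beans against 7.28 and 209 in beans of 5 mm (log2 difference 7.32 ± 0.91, adjusted p = 0.00122). The second 5 mm array stood far above the first for both genes. The probe set of GY2 is of the type that can bind several transcripts. Without it the log2 difference was 8.88 for GY1 and 8.96 for GY2, and without the first it was 4.88 for GY1 and 5.69 for GY2. Both 5 mm values still lay below both fully grown values. The conglycinin gene CG-1 gave 152 and 238 in fully grown beans against 5.44 and 34.4 in beans of 5 mm (log2 difference 2.65, adjusted p = 0.00266; 3.27 without the second 5 mm array and 2.04 without the first), with 1 of its 2 probe sets called and a difference of 1.64 as the mean of both. Glycinin GY7 measured 30.7 and 38.9 in fully grown beans against 0.113 and 1.03 in beans of 5 mm with no 5 mm array above background. The basic globulin gene BG7S-2 measured 2492 and 1091 in fully grown beans against 2.73 and 0.127 in beans of 5 mm, again with no 5 mm array above background.

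**Figure D2:**
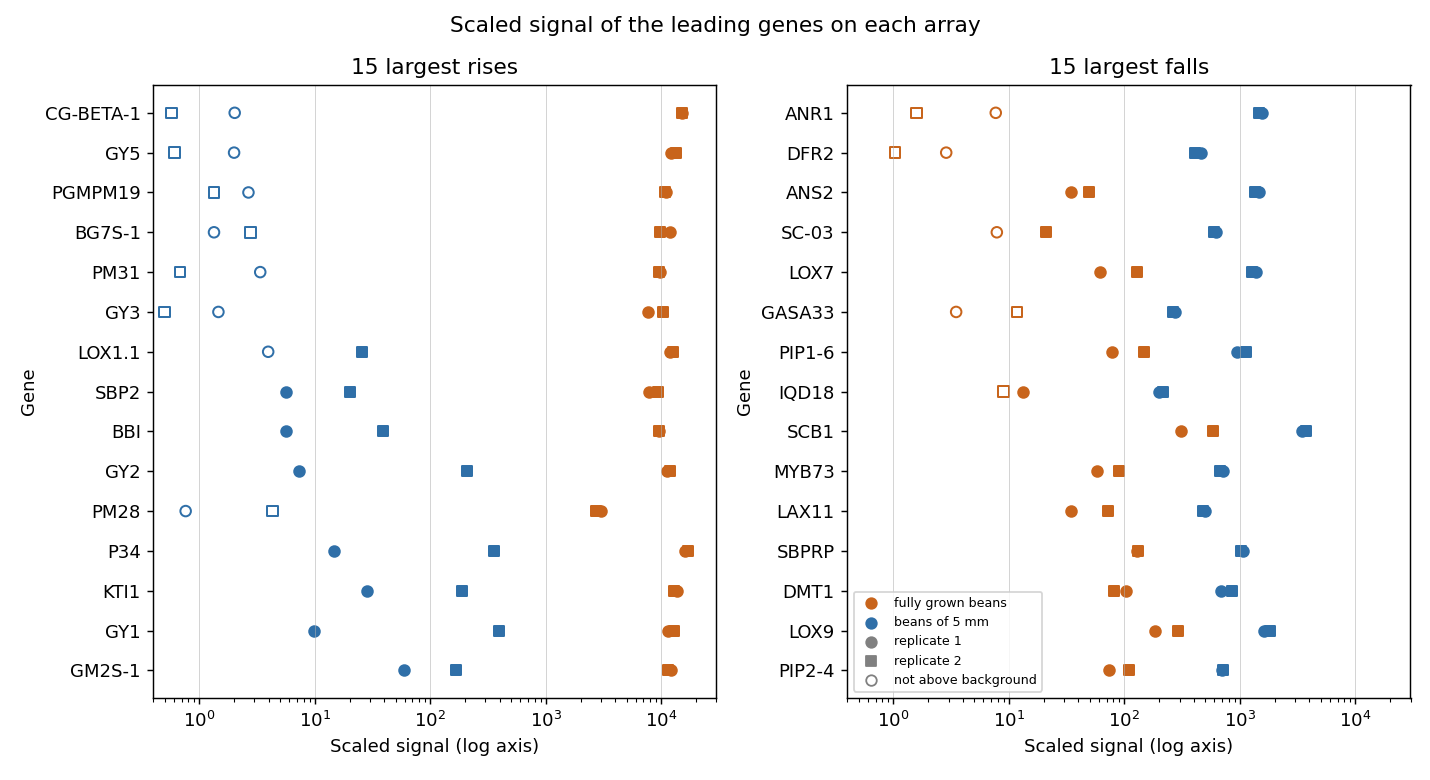
Scaled signal (log axis) of the 15 largest rises (left) and 15 largest falls (right) on each array, orange for fully grown and blue for 5 mm beans, circles for replicate 1, squares for replicate 2, hollow where not above background (signals under 0.5 are drawn there). The orange points of the rises lie close together near the top of the scale, while the blue pairs of GY1, GY2 and P34 are spread over more than a factor of 10.

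Of the other seed proteins, 11 of 11 tested genes were higher (median difference 5.59). They held 1.53% and 1.46% of all soybean signal in fully grown beans, against 0.0977% and 0.170% in beans of 5 mm. The Bowman-Birk gene BBI, an inhibitor of trypsin and chymotrypsin, gave 9574 and 9479 in fully grown beans against 5.61 and 38.8 in beans of 5 mm (log2 difference 8.12 ± 0.39, adjusted p = 5.21e-05). Kunitz inhibitor KTI1 gave 13709 and 12947 in fully grown beans against 28.1 and 187 in beans of 5 mm (7.14 ± 0.62, adjusted p = 0.000331), and the Bowman-Birk type inhibitor D-II gave 13194 and 14445 in fully grown beans against 88.3 and 775 in beans of 5 mm (5.59 ± 0.82, adjusted p = 0.00229). Kunitz inhibitor KTI3, the major Kunitz inhibitor of the seed, measured 11239.9 and 11510.3 in fully grown beans against 1619 and 2331 in beans of 5 mm, a log2 difference of 2.54. All of these inhibitor genes were above background on both 5 mm arrays, and none of their ranges overlapped.

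Allergen P34, a protein of the thiol protease family without protease activity that lies in storage vacuoles, gave 15927 and 17046 in fully grown beans against 14.7 and 353 in beans of 5 mm (log2 difference 7.28 ± 0.997, adjusted p = 0.00176). Sucrose binding protein SBP2 gave 7876 and 9412 in fully grown beans against 5.63 and 20.1 in beans of 5 mm (8.27 ± 0.26, adjusted p = 1.07e-05), and the 2S albumin GM2S-1, a small sulfur-rich storage protein, gave 12031 and 11528 in fully grown beans against 58.6 and 166 in beans of 5 mm (6.66 ± 0.39, adjusted p = 9.31e-05). The 5 mm arrays carried low but unequal signals of all 3. Albumin-1, listed as A1 and known in legumes as a small sulfur-rich seed protein, measured 11282 and 12825 in fully grown beans against 1700.4 and 2327 in beans of 5 mm. Over the 54 genes of the globulin, seed protein and maturation lists, the second 5 mm array was above the first for 43, by a median of 0.48 on the log2 scale, against a median of -0.01 over all tested probe sets. Without the second 5 mm array the differences were 9.07 for P34, 8.24 for KTI1, 7.05 for D-II, 8.79 for BBI and 7.30 for GM2S-1. Without the first they were 5.48 for P34, 6.04 for KTI1, 4.13 for D-II, 7.44 for BBI and 6.01 for GM2S-1. In fully grown beans the second array was above the first for 28 of the 54 genes.

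In the maturation list 34 of 34 tested LEA and seed maturation genes were higher in fully grown beans, 33 of them at least 2-fold, with a median difference of 4.70. Their share of all soybean signal was 1.57% and 1.46% in fully grown beans, against 0.0873% and 0.133% in beans of 5 mm. PGMPM19 gave 10927 and 10722 in fully grown beans against 2.66 and 1.34 in beans of 5 mm, at least 2367-fold higher (adjusted p = 1.08e-06). PM31 gave 9717 and 9594 in fully grown beans against 3.36 and 0.68 in beans of 5 mm, at least 2112-fold higher (adjusted p = 1.08e-06). PM28 gave 3010.4 and 2703 in fully grown beans against 0.76 and 4.28 in beans of 5 mm, at least 624-fold higher (adjusted p = 2.83e-06). All 3 were at background on both 5 mm arrays. PM22 gave 1774 and 1717 in fully grown beans against 0.945 and 4.25 in beans of 5 mm, also at background in beans of 5 mm and at least 382-fold higher (adjusted p = 3.69e-06).

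Others of the maturation list were present at 5 mm. PM9 gave 7134 and 7903 in fully grown beans against 32.2 and 99.3 in beans of 5 mm (log2 difference 6.66 ± 0.38, adjusted p = 8.33e-05; 7.29 without the second 5 mm array and 6.03 without the first). PM1 gave 3703 and 3899 in fully grown beans against 17.6 and 37.8 in beans of 5 mm (6.49 ± 0.23, adjusted p = 1.85e-05). The Em-type LEA gene SLE2 measured 1491 and 641 in fully grown beans against 1.78 and 2.85 in beans of 5 mm. SBP65, which in pea codes for a biotin-bound LEA protein of seeds, measured 524 and 412 in fully grown beans against 1.596 and 1.65 in beans of 5 mm. Neither was above background on any 5 mm array. Others were well above background at 5 mm: PM37 measured 5724 and 7067 in fully grown beans against 1458 and 1547 in beans of 5 mm, and PM30 measured 10726 and 11727 in fully grown beans against 393 and 943 in beans of 5 mm. The list's smallest difference was 0.73. On the values as deposited 31 of the 34 genes were higher and 1 lower, and by the hybridization controls 28 and 3.

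Oil genes went in different directions. Among 18 tested genes of fatty acid synthesis and desaturation 4 were higher and 4 lower (2 and 15 on the values as deposited, 3 and 0 without the first 5 mm array, 3 and 1 without the second, 8 and 4 without the first fully grown array), with a median difference of 0.13 against 0.11 over all tested probe sets. Over tested symbol genes the median difference was 0.19. The 2 rises named here were desaturases. FAD2-1A, which makes linoleate from oleate, gave 7324 and 8047 in fully grown beans against 431 and 744 in beans of 5 mm (log2 difference 3.72 ± 0.27, adjusted p = 0.000188). SACPD-C, a desaturase that makes oleate from stearate on its carrier protein, gave 8729 and 9883 in fully grown beans against 1137 and 1323 in beans of 5 mm (2.90 ± 0.20, adjusted p = 0.000145). The omega-3 desaturase FAD3B measured 698 and 525 in fully grown beans against 232 and 258 in beans of 5 mm, whereas the other FAD2 genes FAD2-2 and FAD2-3 had differences of 0.34 and -0.08. Subunits of plastid acetyl-CoA carboxylase, which commits carbon to fatty acids, lay between -0.71 for ACCB-1 and 0.32 for ACCC-2. DGAT1A, which adds the last acyl chain of triacylglycerol, measured 159 and 129 in fully grown beans against 35.2 and 34.4 in beans of 5 mm, a difference of 1.65. The oil regulator WRI1B measured 77.6 and 108 in fully grown beans against 105 and 131 in beans of 5 mm, and these ranges overlapped.

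Sugar supply genes were higher in 8 of 14 and lower in none (1 and 6 on the values as deposited, 4 and 0 with either 5 mm array left out, 8 and 2 without the second fully grown array). SWEET17, of a family of sugar exporters, rose to 251 and 247 in fully grown beans, against 19.5 and 30.4 in beans of 5 mm (log2 difference 2.71 ± 0.18, adjusted p = 0.000134; 2.05 as the mean of its probe sets). Among other exporters, SWEET24 measured 3108 and 3413 in fully grown beans against 1760.0 and 1707 in beans of 5 mm, and SWEET31 and SWEET34 had differences of -0.49 and -0.19. Galactinol synthase GOLS, the first step to raffinose and stachyose, was dim, at 19.4 and 19.8 in fully grown beans against 3.92 and 3.99 in beans of 5 mm, where no array was above background. The kinase PPCK2, which activates phosphoenolpyruvate carboxylase by phosphorylation, gave 934 and 699 in fully grown beans against 48.8 and 102 in beans of 5 mm (3.23 ± 0.30, adjusted p = 0.000402). Its list held 3 higher and 2 lower of 7 tested (1 and 4 on the values as deposited), with the carboxylase gene PEPC16 at -1.34. Beside the counts of this and the sugar list, 36.2% of tested symbol genes were higher and 20.6% lower.

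In the phytate list 1 of 10 tested genes was higher and 4 were lower (1 and 9 on the values as deposited, 1 and 2 with either 5 mm array left out). IPK1, which adds the last phosphate to make phytate, the seed's phosphorus store, measured 88.5 and 88.2 in fully grown beans against 10.98 and 20.4 in beans of 5 mm. The inositol phosphate synthases MIPS and MIPS4, the entry to the pathway, had differences of -0.85 and -0.94. Among genes of nitrogen use 8 of 18 were higher and 4 lower (3 and 11 on the values as deposited, 6 and 2 without the first 5 mm array, 5 and 2 without the second, 8 and 7 without the first fully grown array). Uricase UR2, which acts in purine breakdown to ureides, gave 2968 and 3444 in fully grown beans against 329 and 299 in beans of 5 mm (log2 difference 3.29 ± 0.17, adjusted p = 5.77e-05), with 1 of its 2 probe sets called and a difference of 1.84 as the mean of both. The urease accessory gene EU3 measured 4178 and 4677 in fully grown beans against 1015 and 1300.3 in beans of 5 mm, and glutamine synthetase GS-2 measured 31.5 and 49.1 in fully grown beans against 169 and 155 in beans of 5 mm. Beside the phytate and nitrogen counts, 36.2% of tested symbol genes were higher and 20.6% lower.

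Genes of vacuolar processing and proteolysis were higher in 5 of 9 and lower in none, against 36.2% and 20.6% of tested symbol genes. The counts were 4 and 4 on the values as deposited and 3 and 4 by the hybridization controls. Vacuolar processing enzyme VPE, which cleaves globulin precursors in the vacuole, gave 2042 and 2072 in fully grown beans against 103 and 155 in beans of 5 mm (log2 difference 3.86 ± 0.20, adjusted p = 6.5e-05). VPE2 gave 300.4 and 338 in fully grown beans against 31.7 and 19.4 in beans of 5 mm (3.02 ± 0.19, adjusted p = 0.000112), and the cysteine protease CP3 gave 6185 and 6969.5 in fully grown beans against 368 and 761 in beans of 5 mm (3.59 ± 0.33, adjusted p = 0.00039). All 3 were above background on both 5 mm arrays. Of 5 genes of protein folding in the endoplasmic reticulum 1 was higher and 1 lower (0 and 4 on the values as deposited), with the chaperone BIP4 at 1377 and 2178 in fully grown beans against 672 and 576 in beans of 5 mm. Translation genes were higher in 5 of 6, yet 0 were higher and 2 lower both as deposited and after quantile normalization.

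Lipoxygenases add oxygen to linoleate and linolenate. LOX1.1, LOX2 and LOX3 are the lipoxygenases of the seed. LOX1.1 gave 11859 and 12549 in fully grown beans against 3.94 and 25.6 in beans of 5 mm (log2 difference 8.73 ± 0.32, adjusted p = 2.15e-05). LOX2 gave 10326 and 10947 in fully grown beans against 27.8 and 289.5 in beans of 5 mm (6.52 ± 0.78, adjusted p = 0.00107), and LOX3 gave 10333 and 10806 in fully grown beans against 40.4 and 246 in beans of 5 mm (6.45 ± 0.63, adjusted p = 0.000484). Only the second 5 mm array was above background for LOX1.1. Without the second 5 mm array the difference was 7.93 for LOX2 and 7.55 for LOX3, and without the first it was 5.12 for LOX2 and 5.34 for LOX3. As the mean of both its probe sets LOX3 stood at 7.30. LOX7 gave 61.2 and 129.5 in fully grown beans against 1371 and 1275 in beans of 5 mm (log2 difference -3.66 ± 0.29, adjusted p = 0.000237), on 4 of 4 probe sets, whose mean difference was -4.25. LOX9 gave 186 and 292 in fully grown beans against 1602 and 1808 in beans of 5 mm (-2.78 ± 0.23, adjusted p = 0.00026), on 5 of 5 probe sets. Members of this family are alike in sequence and the probe sets of LOX3, LOX7 and LOX9 are of the type that can bind several transcripts, so how their signal splits among family members is uncertain.

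Allene oxide synthases and cyclases act after the lipoxygenases on the way to jasmonate. The allene oxide cyclase gene AOC4 fell to 38.0 and 45.8 in fully grown beans, against 339.5 and 264 in beans of 5 mm (log2 difference -2.45 ± 0.18, adjusted p = 0.000181). AOC3 and the allene oxide synthase AOS1 had differences of -1.10 and -1.30, while the allene oxide synthase CYP74A1 stood at 1.12. Over the whole list 4 of 14 genes were higher and 7 lower, and 3 of 8 were higher and 3 lower without cross-hybridizing probe sets. In the scatter of probe set means the 3 seed lipoxygenases lie far below the line of equality, with the globulins.

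**Figure D3:**
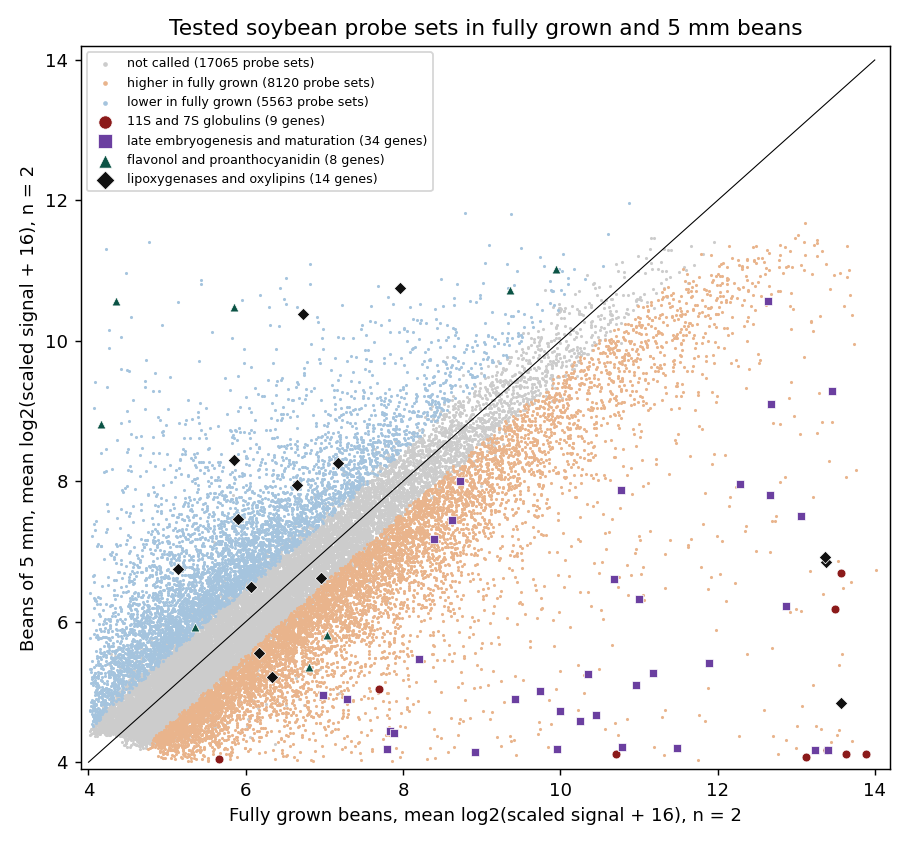
Mean log2(scaled signal + 16) of each tested probe set in fully grown beans (horizontal axis) against beans of 5 mm (vertical axis), n = 2 arrays each, with 4 gene lists marked by their brightest probe sets and the line of equality. The globulins and maturation genes lie below the line, 3 proanthocyanidin genes lie at its upper left, and the brightest probe sets as a body lie below the line.

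Flavonoid genes divided between branches. The isoflavonoid list had 6 of 11 genes higher and none lower, led by CHR5, a chalcone reductase of the daidzein branch. Of tested symbol genes 36.2% were higher and 20.6% lower. The list's counts were 4 and 4 on the values as deposited and 3 and 7 by the hybridization controls. Without cross-hybridizing probe sets 2 of 5 genes were higher and none lower. CHR5 gave 411 and 326 in fully grown beans against 0.607 and 2.87 in beans of 5 mm, where no array was above background, and was at least 80.0-fold higher (adjusted p = 2.66e-05). The isoflavone synthases followed, with IFS1 at 530.0 and 574 in fully grown beans against 15.2 and 33.6 in beans of 5 mm (log2 difference 3.85 ± 0.23, adjusted p = 0.000101) and IFS2 at 429.6 and 242 in fully grown beans against 17.9 and 21.8 in beans of 5 mm (3.24 ± 0.26, adjusted p = 0.000258). The probe sets of these 3 genes can bind near relatives, IFS1 and IFS2 being close copies. Isoflavone reductase IFR2 measured 2916 and 3846 in fully grown beans against 966 and 904 in beans of 5 mm.

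Genes of the proanthocyanidin branch fell, ANR1 and DFR2 to background. ANR1, which makes epicatechin units, gave 7.69 and 1.59 in fully grown beans, with neither array above background, against 1549 and 1457 in beans of 5 mm (at least 121-fold lower; log2 difference -6.22 ± 0.18, adjusted p = 9e-06). DFR2 gave 2.86 and 1.03 in fully grown beans against 463 and 411 in beans of 5 mm and was at least 35.1-fold lower (adjusted p = 1.52e-05). ANS2 gave 34.8 and 49.8 in fully grown beans against 1468 and 1358 in beans of 5 mm (-4.63 ± 0.17, adjusted p = 2.18e-05). These were the 3 largest falls among genes with a symbol. DFR1, another gene of the reductase step, measured 517 and 789.8 in fully grown beans against 1686 and 1681 in beans of 5 mm.

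Upstream and side steps of the flavonoid route varied. The ligase 4CL4, which activates coumarate for phenylpropanoids, fell to 17.5 and 14.1 in fully grown beans, against 224 and 174 in beans of 5 mm (log2 difference -2.75 ± 0.18, adjusted p = 0.000129), while its relative 4CL1 measured 109.7 and 137 in fully grown beans against 56.3 and 50.4 in beans of 5 mm. The chalcone isomerase gene CHI2-A had a difference of -1.89 and the flavanone hydroxylase F3H one of -1.07. In the list of phenylpropanoid and early flavonoid steps 5 of 16 genes were higher and 2 lower (0 and 9 on the values as deposited), with a median difference of 0.34. Without cross-hybridizing probe sets 1 of 6 was higher and 2 were lower, with a median difference of -0.26. Flavonol synthase FLS1, which draws on the same dihydroflavonols as DFR, measured 100.4 and 91.4 in fully grown beans against 24.5 and 25.3 in beans of 5 mm, and the anthocyanidin glucosyltransferase UGT78K1 measured 94.9 and 139.9 in fully grown beans against 36.4 and 44.5 in beans of 5 mm. In the flavonol and proanthocyanidin list 2 of 8 genes were higher and 5 lower.

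Seed coat markers were called in both directions. SCB1, a seed coat protein with a BURP domain, fell to 312 and 579.9 in fully grown beans, against 3462 and 3718 in beans of 5 mm (log2 difference -3.03 ± 0.28, adjusted p = 0.000433). Ep, the seed coat peroxidase, rose to 4740.3 and 6180.3 in fully grown beans, against 728 and 797 in beans of 5 mm (2.80 ± 0.20, adjusted p = 0.000173). HPS, the hydrophobic protein of the seed surface that is made in the inner pod wall, rose to 5241 and 5035 in fully grown beans, against 996 and 1379 in beans of 5 mm (2.12 ± 0.21, adjusted p = 0.000559), but was not higher by the hybridization controls, where its difference was -0.20. With the 4 flavonoid genes, 2 of the 7 genes listed as seed coat markers were higher and 5 lower. The 2 were Ep and HPS, and which tissue gave the HPS signal in these beans was not tested. ANR1 and DFR2 alone of the 7 were not above background in fully grown beans. The summed signal of these 7 genes held 0.171% and 0.181% of all soybean signal in fully grown beans, against 0.250% and 0.257% in beans of 5 mm. As scaled signal the sum went the other way, with 10855 and 12638 in fully grown beans against 10352 and 10801 in beans of 5 mm. Most of the sum in fully grown beans came from Ep and HPS.

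Of 6 tested markers of pod wall and vegetative tissue 2 were lower, the lipoxygenases LOX7 and VLXC, and the chlorophyll binding protein CAB3 measured 1999 and 2495 in fully grown beans against 2343 and 2685 in beans of 5 mm. LOX7 and CAB3 were above background on all 4 arrays. The summed signal of these markers was 0.0430% and 0.0447% of the total in fully grown beans, against 0.103% and 0.111% in beans of 5 mm, and the part of pod and coat tissue in the other results was not tested. Among embryo markers 6 of 7 were higher, all of them globulin genes already counted above, and LEC1-A was lower. LEC1-A, a regulator of embryo development, measured 136 and 149 in fully grown beans against 499.7 and 532 in beans of 5 mm. MFT, of the phosphatidylethanolamine-binding family and linked in Arabidopsis to germination control, rose to 4120.0 and 3078 in fully grown beans, against 575 and 909 in beans of 5 mm (log2 difference 2.27 ± 0.27, adjusted p = 0.000965), except by the hybridization controls (-0.03).

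In the cell wall list 7 of 11 genes were lower and 2 higher, against 18.1% and 26.4% of all tested probe sets, and 4 were lower and 2 higher with either 5 mm array left out. Among tested symbol genes 20.6% were lower and 36.2% higher. The xyloglucan enzyme XTH1 measured 30.2 and 34.3 in fully grown beans against 223 and 128 in beans of 5 mm, and expansin EXP2 measured 97.5 and 73.5 in fully grown beans against 203 and 173 in beans of 5 mm. The proline-rich wall protein PRP2 went the other way, with 3646 and 2854 in fully grown beans against 139.6 and 119 in beans of 5 mm (log2 difference 4.48 ± 0.18, adjusted p = 2.68e-05), whereas PRP1 measured 111 and 174 in fully grown beans against 330.0 and 338 in beans of 5 mm. CCS52, an activator of the anaphase-promoting complex that drives endoreduplication in Medicago, fell to 5.27 and 10.9 in fully grown beans, not above background, against 86.9 and 88.9 in beans of 5 mm (at least 7.07-fold lower, adjusted p = 0.00031). The replication polymerase POLD1 measured 24.4 and 30.9 in fully grown beans against 128 and 81.7 in beans of 5 mm. Profilin PRO2, which binds actin monomers, rose to 3512 and 4387 in fully grown beans, against 832 and 912 in beans of 5 mm (2.15 ± 0.19, adjusted p = 0.000341), except by the hybridization controls (-0.16).

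Aquaporins of the plasma membrane conduct water into and out of cells. PIP1-6 fell to 78.8 and 149 in fully grown beans, against 950.2 and 1122 in beans of 5 mm (log2 difference -3.07 ± 0.27, adjusted p = 0.000331). PIP2-4 fell to 74.3 and 111 in fully grown beans, against 707 and 718 in beans of 5 mm (-2.77 ± 0.19, adjusted p = 0.000156), with 1 of its 2 probe sets called and a difference of -1.63 as the mean of both. By contrast PIP1-7 measured 6614 and 6221 in fully grown beans against 2273 and 2570.5 in beans of 5 mm, and over the family 4 of 20 aquaporins were higher and 6 lower (0 and 14 on the values as deposited). LAX11, an auxin influx carrier, fell to 34.8 and 72.1 in fully grown beans, against 496 and 483 in beans of 5 mm (-2.92 ± 0.26, adjusted p = 0.000346), and the ethylene precursor synthase ACS1 fell to 27.0 and 55.7 in fully grown beans, against 377 and 134 in beans of 5 mm (-2.13 ± 0.45, adjusted p = 0.01). For ACS1 the 5 mm arrays were unequal, and its difference was -2.82 without the second and -1.43 without the first.

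A further 4 large falls were of genes outside the lists. IQD18, of a family of calmodulin-binding proteins, fell to 13.2 and 9.01 in fully grown beans, against 198 and 218 in beans of 5 mm (log2 difference -3.05 ± 0.16, adjusted p = 7.23e-05). DMT1, a divalent metal transporter known from nodules, fell to 102 and 81.3 in fully grown beans, against 679.9 and 859 in beans of 5 mm (-2.86 ± 0.18, adjusted p = 0.000117). SC-03 fell to 7.86 and 21.1 in fully grown beans, against 618 and 596 in beans of 5 mm (-4.39 ± 0.22), and SBPRP to 127 and 130.2 in fully grown beans, against 1065 and 1029 in beans of 5 mm (-2.88 ± 0.14). On 1 of the fully grown arrays each, IQD18 and SC-03 were not above background. None of the ranges of these 4 genes overlapped.

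GASA genes, which code for small cysteine-rich peptides regulated by gibberellin in Arabidopsis, were called in both directions. GASA12 rose to 5402 and 5134 in fully grown beans, against 122 and 181 in beans of 5 mm (log2 difference 5.00 ± 0.21, adjusted p = 2.74e-05). GASA22 rose to 7895 and 9114 in fully grown beans, against 402 and 385 in beans of 5 mm (4.37 ± 0.17, adjusted p = 2.61e-05), and GASA27 to 7714 and 7756 in fully grown beans, against 1343 and 1526 in beans of 5 mm (2.42 ± 0.19, adjusted p = 0.000225). By the hybridization controls the difference of GASA27 was only 0.10, and its probe set can bind several transcripts. In the other direction GASA33 fell to 3.49 and 11.7 in fully grown beans, not above background, against 275 and 261 in beans of 5 mm (at least 21.6-fold lower, adjusted p = 8.33e-05). GASA9 fell to 95.4 and 229.7 in fully grown beans, against 738 and 729 in beans of 5 mm. GASA3 fell to 171 and 162 in fully grown beans, against 807 and 712 in beans of 5 mm, and GASA29 to 103 and 96.9 in fully grown beans, against 441 and 512 in beans of 5 mm. Of 16 tested members 5 were higher and 4 lower (4 and 9 on the values as deposited, 5 and 8 without the first fully grown array). Gibberellin, cytokinin and brassinosteroid genes held 1 higher and 1 lower of 14 (0 and 12 on the values as deposited), with differences between -0.73 and 0.65.

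**Figure D4:**
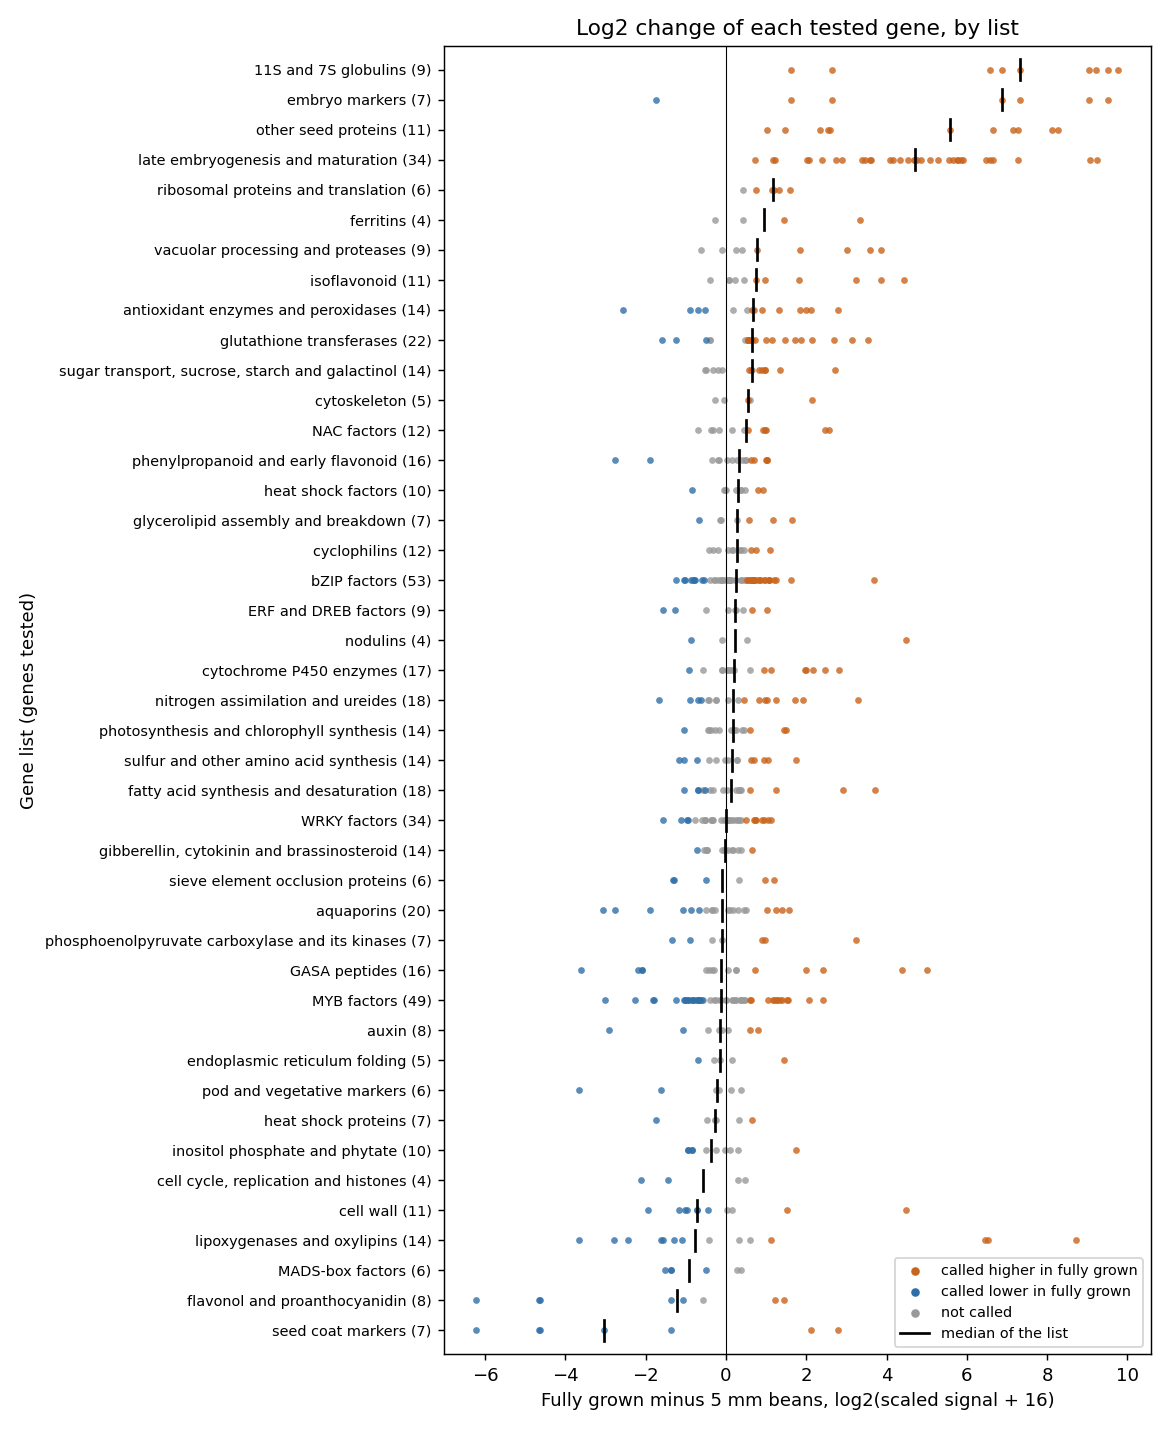
Difference in log2(scaled signal + 16), fully grown minus 5 mm beans, of each tested gene (points) in the gene lists with at least 4 tested genes, ordered by list median (black bars), orange where called higher, blue where called lower, grey where not called. Globulin, seed protein and maturation lists lie wholly above 0, and the GASA, lipoxygenase, MYB and aquaporin lists hold calls on both sides.

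Transcription factor families were mixed. BZIP132 led 22 higher and 9 lower of 53 tested bZIP genes (2 and 30 on the values as deposited, 12 and 3 without the first 5 mm array, 10 and 6 without the second), at 1329.8 and 1609 in fully grown beans against 77.6 and 126 in beans of 5 mm (log2 difference 3.68 ± 0.23, adjusted p = 0.000109). In the MYB family 13 of 49 tested genes were higher and 18 lower (4 and 34 on the values as deposited, 1 and 38 by the hybridization controls). Of all tested probe sets 26.4% were higher and 18.1% lower, and of tested symbol genes 36.2% and 20.6%. Without the first 5 mm array 10 MYB genes were higher and 7 lower. MYB73 fell to 58.1 and 88.9 in fully grown beans, against 707 and 676 in beans of 5 mm (-3.004 ± 0.20, adjusted p = 0.000127). MYB11 fell to 0.467 and 6.08 in fully grown beans, not above background, against 75.2 and 75.9 in beans of 5 mm, at least 6.08-fold lower (adjusted p = 0.000318), with 1 of its 2 probe sets called and a difference of -0.99 as the mean of both. MYB92 rose to 63.99 and 87.3 in fully grown beans, against 0.264 and 1.84 in beans of 5 mm, with no 5 mm array above background (at least 16.3-fold, adjusted p = 0.000238; log2 difference 2.42, or 1.81 as the mean of its probe sets), and MYB70 rose to 390.3 and 307 in fully grown beans, against 80.3 and 61.3 in beans of 5 mm (2.07 ± 0.19, adjusted p = 0.000377), except by the hybridization controls (-0.02).

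NAC factors were higher in 6 of 12 and lower in none (2 and 5 on the values as deposited, 6 and 2 without the second fully grown array). NAC14 rose to 817 and 681 in fully grown beans, against 111 and 132 in beans of 5 mm (log2 difference 2.48 ± 0.17, adjusted p = 0.000142; 1.59 as the mean of its probe sets), and NAC19 to 181 and 142 in fully grown beans, against 15.4 and 12.5 in beans of 5 mm (2.56 ± 0.18, adjusted p = 0.000156). By the hybridization controls the difference of NAC14 was 0.28. MADS-box factors, which include regulators of floral and ovule identity, were lower in 4 of 6 and higher in none. Beside the NAC and MADS-box counts, 36.2% of tested symbol genes were higher and 20.6% lower. AGL3L measured 50.9 and 70.7 in fully grown beans against 225 and 179.9 in beans of 5 mm, and MADS28 measured 139.6 and 137 in fully grown beans against 429 and 341 in beans of 5 mm. Of 52 WRKY genes on the array 34 were tested, 8 of them higher and 4 lower (0 and 22 on the values as deposited, 4 and 3 without the first 5 mm array, 2 and 5 without the second, 10 and 9 without the first fully grown array), with no difference above 1.13 or below -1.56.

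Glutathione transferases join glutathione to reactive compounds. They were higher in 16 of 22 and lower in 3 (8 and 9 on the values as deposited), and in 9 and 2 with either 5 mm array left out. GSTU41 rose to 1028 and 2226 in fully grown beans, against 96.5 and 136 in beans of 5 mm (log2 difference 3.55 ± 0.35, adjusted p = 0.00053; 2.67 as the mean of its probe sets), and GSTU28 to 219.6 and 284 in fully grown beans, against 10.4 and 18.2 in beans of 5 mm (3.15 ± 0.20, adjusted p = 0.000123). GST24 rose to 362 and 336 in fully grown beans, against 26.5 and 57.7 in beans of 5 mm. As the mean of its probe sets its difference was 2.04, against 2.70 for the brightest. GSTa rose to 1819 and 3429.7 in fully grown beans, against 492 and 632 in beans of 5 mm, except by the hybridization controls (-0.17). Beside the transferase counts, 36.2% of tested symbol genes were higher and 20.6% lower. Superoxide dismutase SOD1 rose to 2563 and 3093 in fully grown beans, against 679.8 and 605 in beans of 5 mm (2.11 ± 0.18, adjusted p = 0.000302), except by the hybridization controls (-0.20). Ascorbate peroxidase APX2, which removes hydrogen peroxide, fell to 54.4 and 117 in fully grown beans, against 561 and 553 in beans of 5 mm (-2.57 ± 0.29, adjusted p = 0.000807), with 1 of 2 probe sets called and a difference of -1.52 as their mean. Ferritin SFERH-2, the iron store of plastids, rose to 1244 and 1952 in fully grown beans, against 134 and 146 in beans of 5 mm (3.34 ± 0.23, adjusted p = 0.000149; 2.61 as the mean of its probe sets).

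Cytochrome P450 genes were higher in 7 of 17 and lower in 1 (6 and 7 on the values as deposited). Among tested symbol genes 36.2% were higher and 20.6% lower. CYP93E1, which hydroxylates beta-amyrin on the way to soyasaponins, rose to 3211 and 2556 in fully grown beans, against 304 and 509 in beans of 5 mm (log2 difference 2.81 ± 0.26, adjusted p = 0.000431). CYP71A10 rose to 96.8 and 139.7 in fully grown beans, against 6.60 and 9.78 in beans of 5 mm, and CYP83E8 to 204 and 166 in fully grown beans, against 26.9 and 30.5 in beans of 5 mm. The difference of CYP83E8 was 2.16, but 0.29 by the hybridization controls. The nodulin gene NOD33 rose to 1844 and 1846 in fully grown beans, against 83.5 and 54.0 in beans of 5 mm (4.48 ± 0.20, adjusted p = 3.64e-05), while 9 of 13 nodulin genes on the array did not pass the background filter.

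The fully grown beans were green, and chlorophyll is lost only later in maturation. Of 14 tested genes of photosynthesis and chlorophyll synthesis 3 were higher and 1 lower (0 and 12 on the values as deposited, 8 and 1 without the first fully grown array, 3 and 5 without the second). PSAD of photosystem I measured 2724 and 3879 in fully grown beans against 1136 and 1224 in beans of 5 mm, and the magnesium chelatase subunit CHLH measured 39.4 and 75.0 in fully grown beans against 130.4 and 133 in beans of 5 mm. Of the 3 stay-green genes, which promote chlorophyll loss, SGR2 was called higher, at 57.4 and 43.6 in fully grown beans against 21.4 and 32.2 in beans of 5 mm (log2 difference 0.64, adjusted p = 0.0402), but no gene of this list was called higher on the values as deposited, with either 5 mm array left out or without the first fully grown array. SGR measured 125 and 127 in fully grown beans against 90.0 and 99.6 in beans of 5 mm. SGR1 measured 34.5 and 41.0 in fully grown beans against 41.5 and 30.1 in beans of 5 mm, and only its ranges overlapped. Heat shock protein genes held 1 higher and 1 lower of 7 (0 and 6 on the values as deposited), with HSP90A1 at 20.7 and 22.8 in fully grown beans against 121 and 101 in beans of 5 mm.

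Transcripts above background at 1 stage only were counted. Above it on both 5 mm arrays and neither fully grown array were 2543 probe sets (6.76% of all soybean probe sets), and 275 (0.731%) were above it on both fully grown arrays and neither 5 mm array. Scaled background was 11.5 and 13.5 in fully grown beans, against 4.34 and 4.82 in beans of 5 mm, so a dim transcript needed a lower scaled signal to pass in beans of 5 mm. Genes with a symbol numbered 21 in the fully grown class, whose direction the choice fixes, among them CG-BETA-1, GY3, GY5, GY7, both BG7S genes, PM22, PM24, PM28, PM31, CHR5 and MYB92. Of the 871 tested symbol genes the class of 5 mm beans held 39, among them ANR1, DFR2, GASA33, MYB11 and CCS52, which were called lower. Others of the 39, such as WRKY34, BZIP44 and NAC34, were not called in either direction.

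Values at the earlier stages are a description only, since no source used here names the program that processed those arrays. SCB1 measured 606 and 444 at pod elongation, 2945 and 3571 in beans of 2 mm with pod, 3462 and 3718 in beans of 5 mm and 312 and 579.9 in fully grown beans. ANR1 measured 101 and 119.5 at pod elongation and 1618 and 1908 in beans of 2 mm with pod, before the values at 5 mm and at full size given above. LOX7 measured 2657 and 2652 at pod elongation and 1727 and 1976 in beans of 2 mm with pod. SCB1 and ANR1 were high in beans of 2 and 5 mm, while LOX7 was highest in the elongating pod. Of the 105 symbol genes at least 2-fold lower in fully grown beans, 37 had their highest mean level at pod elongation, 38 in beans of 2 mm and 30 in beans of 5 mm, and 89 had their lowest mean in fully grown beans. Of the 197 at least 2-fold higher, 180 had their highest mean in fully grown beans and 16 at pod elongation. Both sets were chosen by the difference between fully grown and 5 mm beans. The choice therefore fixes which of these 2 stages is the higher, and only the place of the earlier stages was free.

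**Figure D5:**
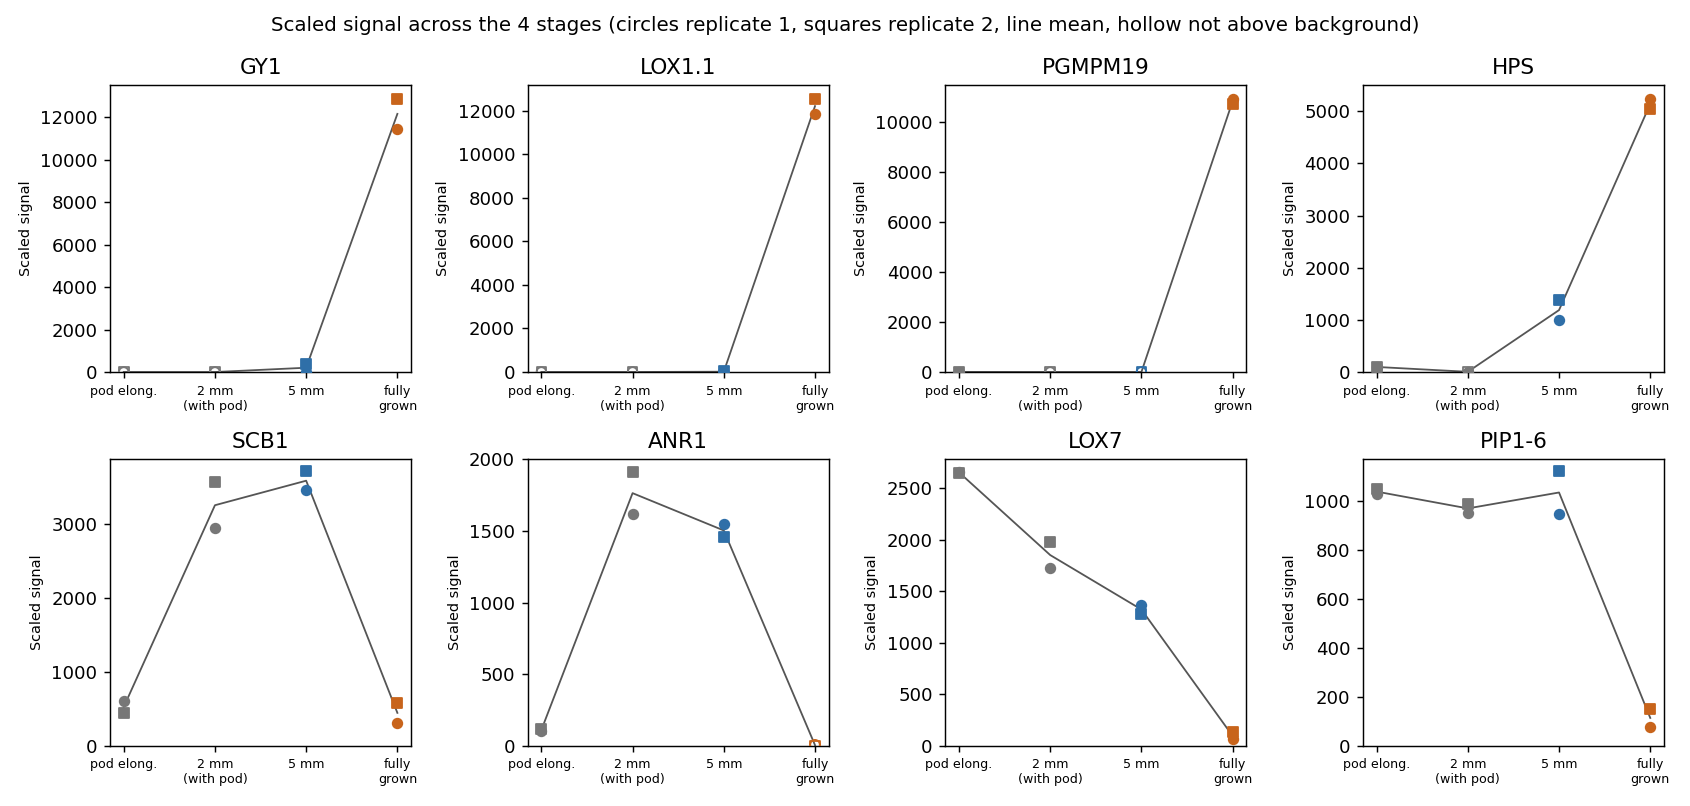
Scaled signal (linear axes from 0) of 8 genes over the 4 stages in order of development, grey for pod elongation and 2 mm beans with pod, blue for 5 mm beans, orange for fully grown beans, circles replicate 1, squares replicate 2, lines the means. GY1, LOX1.1, PGMPM19 and HPS are highest in fully grown beans, SCB1 and ANR1 in the middle stages and LOX7 at pod elongation, and PIP1-6 is lower in fully grown beans than at any earlier stage.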

How the data were processed

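Total RNA of each sample was hybridised to an Affymetrix soybean array, and the authors deposited 1 linear signal intensity per probe set and sample, made with MAS5 for the 4 arrays compared, per the submitters' processing notes (no version, scaling target or build is given in the sources used here, and no program for the other 4 arrays). The table held 61170 probe sets. After 44 pathogen ribosomal probe sets were moved to the pathogen group, 37641 soybean, 23394 pathogen and 135 control probe sets remained. Each array was scaled to the same median soybean signal (35.5), and log2(scaled signal + 16) was fitted with limma 3.58.1 in R 4.3.3 on the 4 arrays (group means, trended eBayes, two-sided, Benjamini-Hochberg over 30748 probe sets above the 95th percentile of pathogen signals on at least 2 arrays, threshold 0.05). The fit was also run on simulated data with independent noise of the spread it had itself estimated. That run cannot test the scaling or shifts shared by many genes. Only 2 arrays per group limit the precision. Fold changes of dim transcripts are understated by the added 16.

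Gene names came from the platform annotation: 8677 probe sets have 1 gene, 370 several and are left unnamed, and 28594 soybean probe sets are unlisted. RefSeq (Glycine_max_v4.0) matched 8652 of the 8677 and was used for names only. A gene stands as its brightest tested probe set. Named with a verb of change are the 15 largest rises and falls among symbol genes that passed and did not overlap, and up to 6 members per list and direction with a log2 difference of at least 2. Other list members are given as values. The gene lists, written from symbols, were chosen with earlier results of these data known. The labels state no pairing of replicates, so no block was used. Same-numbered replicates did not deviate together (r = -0.04), but whether they shared a plant or a batch was not tested. Alternatives were other scalings, added constants of 1 and 64, other filters, all 8 arrays, each array left out, a replicate block, no trend, no cross-hybridizing probe sets and the mean over a gene's probe sets.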

Additional observations from a re-analysis of the deposited data

Results flagged for a closer look

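Outside the soybean genes tested, the array's own control probe sets for sucrose binding protein carried a signal that no comparison above uses. Their mean scaled signal in fully grown beans was 13318 for the 3' probe set, 10187 for the middle one and 3703 for the 5' one. In fully grown beans the 3' probe set read 12923 and 13712, against 174 and 1161 in beans of 5 mm. The middle one read 10230.2 and 10143 in fully grown beans, against 30.7 and 279 in beans of 5 mm, and the 5' one 3977 and 3429 in fully grown beans, against 0.357 and 2.38, not above background, in beans of 5 mm. For the 3' and middle probe sets the second 5 mm array was above the first. Among probe sets made for pathogens, 13 for Phytophthora sojae and 3 for the nematode Heterodera glycines exceeded on each of the 4 arrays the median signal of tested soybean probe sets, and their source was not tested.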

How the results depend on the processing

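The count of 13683 probe sets that passed was 21713 on the values as deposited, 28413 when arrays were scaled to the hybridization controls and 6195 when a 2-fold difference was also required. Leaving out 1 array gave between 7742 and 18119, the lowest without the first 5 mm array and the highest without the first fully grown array. With 1 array left in a group, that array is assumed to vary like the others. The labels state no pairing by replicate number, and the fit with the replicate block gave 14412. Under the other alternatives the count lay between 11218 and 17049. Directions of whole groups moved with the scaling: 8120 were higher and 5563 lower as reported, 6523 and 6845 after quantile normalization, 1733 and 19980 as deposited and 609 and 27804 by the hybridization controls. The 80 named genes kept direction and call under every alternative in which they could be tested except the hybridization controls, where 69 did, 5 no longer passed, and 6 turned: GSTa at -0.165, HPS at -0.198, MFT at -0.032, MYB70 at -0.0246, PRO2 at -0.159 and SOD1 at -0.195. Of the named rises that kept their direction by the hybridization controls, the smallest were GASA27 at 0.101, NAC14 at 0.279 and CYP83E8 at 0.294. Ep at 0.493 and CYP93E1 at 0.524 came next. Requiring signal on all 4 arrays left 62 of the 80 named genes, and leaving out cross-hybridizing probe sets 54. Genes lost in the latter way included GY2, P34, SBP2, CP3, UR2, PRP2, PRO2, CCS52, PIP1-6 and PIP2-4. GASA33, GSTU28, GSTU41, GSTa, NAC14, NAC19, NOD33, CYP83E8 and CYP93E1 were also lost. An added constant of 1 or 64 changed sizes most where a group was not above background: ANR1 was -8.31 and -4.51. The cause of the changes with scaling was not tested.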

Other observations

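Of 7 genes of glycerolipid assembly 3 were higher and 1 lower (1 and 5 on the values as deposited), of 14 antioxidant enzymes and peroxidases 8 and 4 (4 and 6 as deposited, 5 and 2 without the first 5 mm array, 6 and 2 without the second), of 14 genes of sulfur and other amino acid synthesis 5 and 3 (1 and 9 as deposited), and of 6 sieve element occlusion genes, whose proteins plug phloem, 2 and 3 (0 and 3 as deposited). Of 9 ERF and DREB factors 2 were higher and 2 lower (0 and 7 as deposited), of 10 heat shock factors 2 and 1 (0 and 6 as deposited), of 8 auxin genes 2 and 2 (0 and 6 as deposited) and of 12 cyclophilins 3 and 0 (0 and 9 as deposited, 6 and 0 without the first fully grown array, 3 and 3 without the second). Of 5 cytoskeleton genes 2 were higher and 0 lower (1 and 3 as deposited), of 4 ferritins 2 and 0 (1 and 2 as deposited), of 3 stay-green genes 1 and 0 (0 and 2 as deposited), of 3 ethylene genes 0 and 1, of 4 cell cycle and replication genes 0 and 2 and of 3 embryo regulators 1 and 1.

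The genes in the next sentences were chosen after their values were seen. PRX3, of the antioxidant list, measured 801 and 783 in fully grown beans, against 160.4 and 217 in beans of 5 mm, with 1 of its 2 probe sets called. DREB3, of the ERF and DREB list, measured 121 and 105 in fully grown beans, against 336 and 402 in beans of 5 mm, while DREB measured 519 and 637 in fully grown beans, against 259 and 289 in beans of 5 mm. The sieve element gene SEO-F3 measured 132 and 201 in fully grown beans, against 59.8 and 63.7 in beans of 5 mm, and SEOA 33.7 and 46.8 in fully grown beans, against 137 and 112 in beans of 5 mm. The cystatin gene CYSTATIN, an inhibitor of cysteine proteases, measured 1177 and 1314 in fully grown beans, against 375 and 298 in beans of 5 mm.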
